A study of Homo sapiens with 12 samples.

Results

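The genes described here were 35 genes of cholesterol and fatty acid synthesis, of the proteins that regulate these pathways, and of sterol transport and efflux. They were chosen by symbol from the 62754 gene identifiers of 1 RNA sequencing table of PC9 cells. The rule held no measured value, but the list was drawn up with earlier results of these data known. Each of the 35 symbols matched 1 Ensembl identifier. PC9 is a human lung adenocarcinoma line that carries an activating EGFR mutation, and erlotinib is an inhibitor of the EGFR kinase. The cells came from a subclonal PC9 line, and all were grown in RPMI-1640 with fetal bovine serum. The 12 libraries formed 4 groups of 3 cultures, 3 of them of the TDP1 WT genotype. The first was untreated (WT), another had spent 7 days with erlotinib at 1 µM and is called DTC, for drug-tolerant cells, and another 28 days at the same dose and is called DTEC, for drug-tolerant expanded cells. The fourth group was KO2 (here KO), a PC9 line with TDP1 knocked out, left untreated. The 3 cultures of a group were split from a shared flask and then grown apart, so the p-values below measure the spread between such cultures. KO2 is 1 line and was not treated with erlotinib, so a difference between KO and WT cannot be told apart from a difference between lines.

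Cells make cholesterol from acetyl-CoA through the mevalonate pathway to farnesyl diphosphate, then through squalene and lanosterol to the sterols. The transcription factors SREBP, encoded by SREBF1 and SREBF2, switch on these enzymes and those of fatty acid synthesis when membrane sterol is low. SCAP carries SREBP out of the endoplasmic reticulum, and the INSIG proteins hold both back when sterol is high. Oxysterols act the other way through the LXR receptors, which induce the cholesterol exporters ABCA1 and ABCG1 and also SREBF1. Rapidly dividing cancer cells draw on both pathways for new membrane.

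Levels are given as CPM, estimated counts scaled to a common library total by the TMM method, and ± marks the SD over 3 libraries. The libraries totalled 25572691 to 38373679 counts. TDP1 was at 26.3 ± 1.60 CPM in WT and 10.8 ± 0.647 CPM in KO, and the KO libraries all lay below the WT libraries. In DTC, of TDP1 WT genotype, it was at 13.96 ± 1.55 CPM (12.7 to 15.7), and in DTEC at 26.6 ± 1.54 CPM, so the transcript level alone does not mark the genotype. The epithelial genes KRT8, KRT18, KRT19, EPCAM and CDH1 were expressed in all 4 groups, the lung lineage factor NKX2-1 was under 1 CPM in each group's mean, and 4 leukocyte markers summed to at most 1.82 CPM in any library. The 7 epithelial markers summed to 10389 to 10873 CPM in WT and 4922 to 5533 CPM in DTC. Of 4 fibroblast markers 3 were under 1 CPM in all libraries, and the sum, mostly COL1A1, was 54.4 to 57.1 CPM in DTC against 7.99 to 8.91 in WT, 11.1 to 14.1 in DTEC and 13.4 to 15.1 in KO. The 3 endothelial markers summed to 122 to 142 CPM in DTEC against 58.5 to 61.4 in WT, 41.9 to 49.5 in DTC and 75.7 to 77.2 in KO. A set of 10 proliferation genes, 10 of 10 called lower in DTC and in DTEC, summed to 3058 to 3230 CPM in WT, 1002 to 1021 CPM in DTC, 1550 to 1600 CPM in DTEC and 3065 to 3132 CPM in KO. The share of counts from mitochondrially encoded genes was 5.02% ± 0.519 in DTC, against 2.60% ± 0.147 in WT and 2.04% ± 0.296 in DTEC. DTC replicate 1 stood apart from the other 2 DTC libraries, with a mean chi-square per gene of 131 and 81.8 against 19.1 between those 2. To a smaller degree so did WT replicate 1 (28.0 and 19.4 against 5.60) and DTEC replicate 3 (54.7 and 23.5 against 13.2). The KO pairs ran from 3.86 to 6.78. The part of these differences in the results below was not tested. In bulk RNA, fewer cells of a type and less RNA per cell cannot be told apart.

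**Figure D1:**
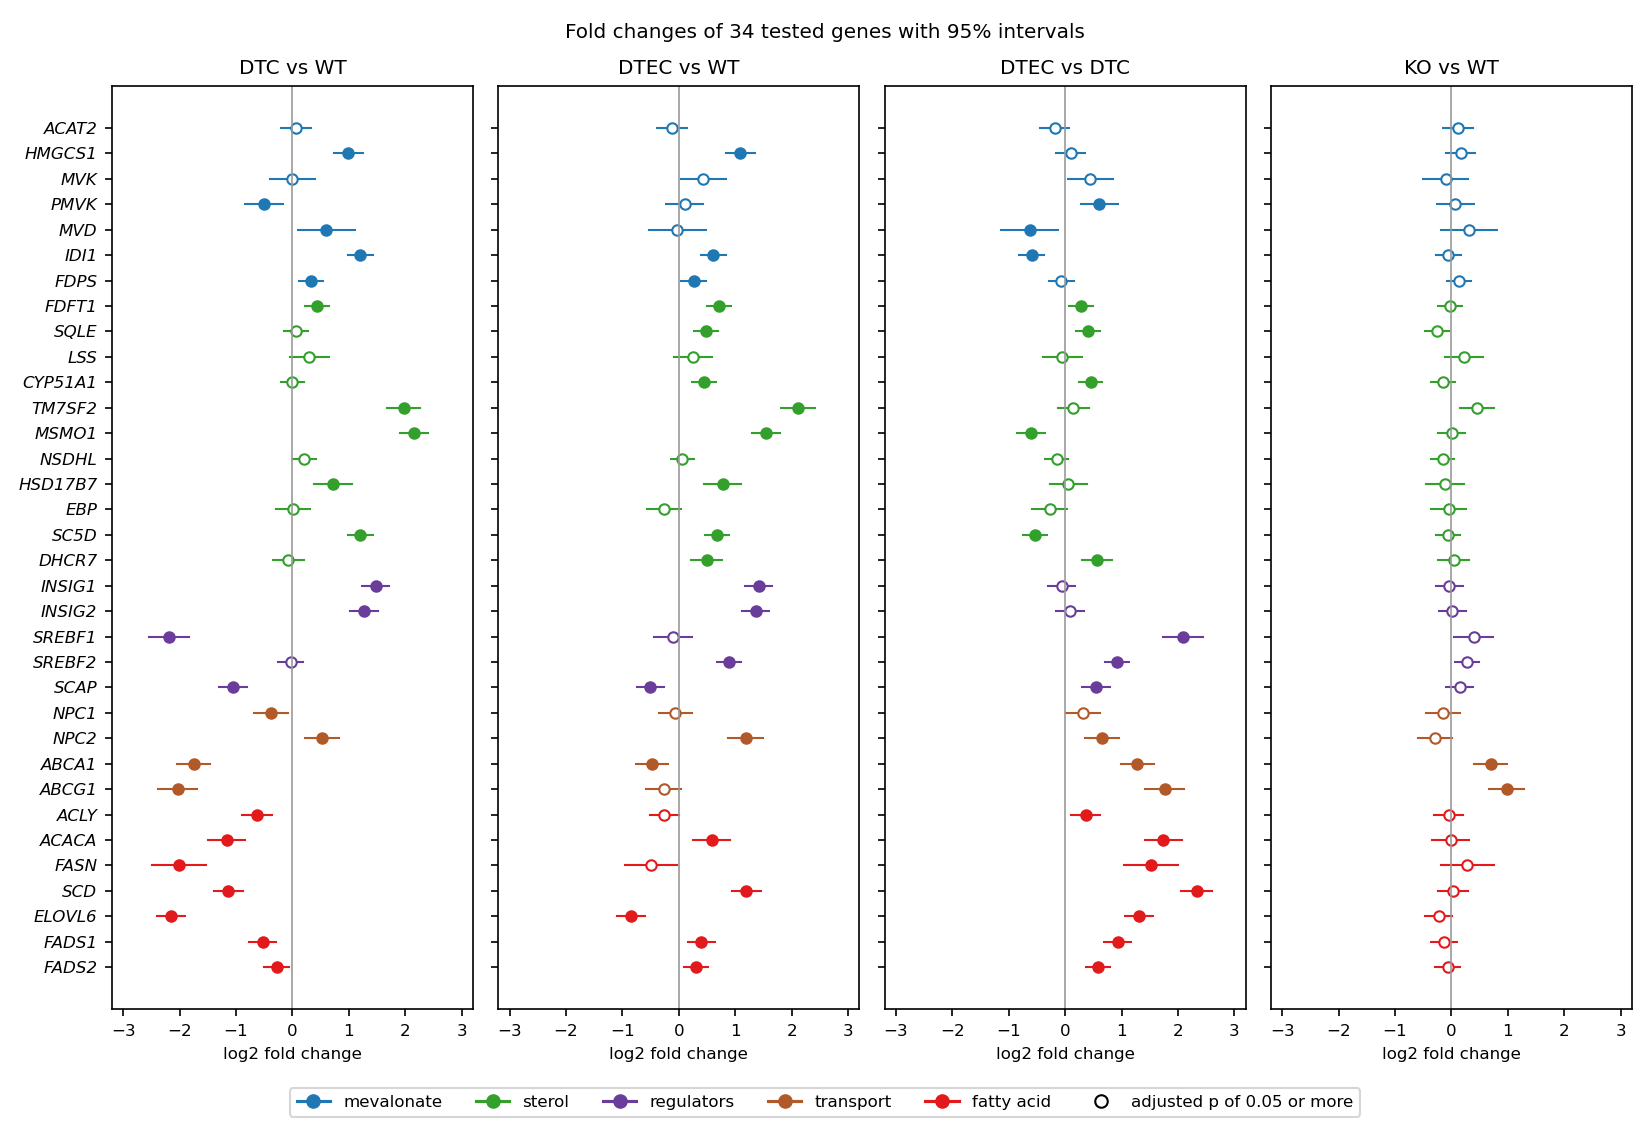
Log2 fold changes of the 34 tested genes in 4 comparisons, with 1 row per gene, coloured by role. Points are edgeR estimates, lines are 95% intervals, and open points are genes that did not pass an adjusted p of 0.05. The 7 fatty acid genes lie left of 0 (log2 scale) in DTC against WT and right of 0 in DTEC against DTC.

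Promoters of 11 genes are shown first. They were chosen after the values were seen, as examples with and without a CCAAT box among genes that rose and genes that fell in DTC, with SREBF2 for its TCACNCCAC match. Of the 35 genes, 30 had an entry in the RefSeq promoter table (GRCh38.p14), which spans 250 bases before to 50 bases after a gene's start, and ABCG1, FDFT1, FASN, SQLE and ACAT2 had none. A CCAAT box, the letters CCAAT or their reverse complement ATTGG, was found in 21 of 30 genes (70.0%), against 39.7% of the 27305 genes in the table. It was present in 8 of 9 genes of the sterol steps, 5 of 6 mevalonate genes, 4 of 6 fatty acid genes, 2 of 5 regulators and 2 of 4 transport genes. The letters TCACNCCAC on either strand, a form of the sterol regulatory element to which SREBP binds, were found in SREBF2 alone, which is 3.33% of the 30 genes against 1.39% of all genes. The E-box CACGTG was found in 5 of 30 genes (16.7% against 8.77% of all genes) and the GC box GGGCGG, on either strand, in 29 of 30 (96.7% against 48.3%). Sorted by the call in DTC against WT described below, 10 of 11 genes called higher held a CCAAT box (all but INSIG2), as did 4 of 11 called lower (ACACA, ACLY, FADS2 and SCD) and 6 of 7 not called, which is a description of these genes with no test. The 27305 genes are all genes of the promoter table, not only those expressed in PC9, and shares among expressed genes were not counted. A match is only a match of letters in these windows. The 7 promoters that follow hold such matches, and each line gives the 200 bases before the RefSeq start, 5′ to 3′ on the gene's strand, with CCAAT boxes and the TCACNCCAC match in capitals.
MSMO1 (chr4:165327469-165327668, plus strand): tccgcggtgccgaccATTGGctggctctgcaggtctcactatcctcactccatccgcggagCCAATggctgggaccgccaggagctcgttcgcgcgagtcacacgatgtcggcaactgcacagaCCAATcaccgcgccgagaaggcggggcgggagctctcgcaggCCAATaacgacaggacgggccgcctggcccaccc
IDI1 (chr10:1048887-1049086, minus strand): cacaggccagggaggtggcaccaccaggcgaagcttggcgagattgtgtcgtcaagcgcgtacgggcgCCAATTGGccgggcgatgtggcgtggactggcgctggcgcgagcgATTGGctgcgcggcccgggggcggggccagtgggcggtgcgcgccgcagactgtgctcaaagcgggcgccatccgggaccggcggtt
HMGCS1 (chr5:43313413-43313612, minus strand): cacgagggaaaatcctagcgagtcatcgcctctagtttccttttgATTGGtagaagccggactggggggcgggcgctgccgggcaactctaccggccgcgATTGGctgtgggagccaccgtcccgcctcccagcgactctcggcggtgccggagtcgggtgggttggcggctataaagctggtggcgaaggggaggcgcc
INSIG1 (chr7:155297678-155297877, plus strand): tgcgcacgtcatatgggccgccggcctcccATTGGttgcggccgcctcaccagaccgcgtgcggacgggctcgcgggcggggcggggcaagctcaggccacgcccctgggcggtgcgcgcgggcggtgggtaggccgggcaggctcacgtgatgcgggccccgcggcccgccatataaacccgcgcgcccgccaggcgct
TM7SF2 (chr11:65111672-65111871, plus strand): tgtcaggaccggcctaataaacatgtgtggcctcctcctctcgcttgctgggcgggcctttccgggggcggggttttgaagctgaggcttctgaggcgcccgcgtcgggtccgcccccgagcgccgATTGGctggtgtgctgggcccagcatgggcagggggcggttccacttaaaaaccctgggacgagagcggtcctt
SCD (chr10:100347033-100347232, plus strand): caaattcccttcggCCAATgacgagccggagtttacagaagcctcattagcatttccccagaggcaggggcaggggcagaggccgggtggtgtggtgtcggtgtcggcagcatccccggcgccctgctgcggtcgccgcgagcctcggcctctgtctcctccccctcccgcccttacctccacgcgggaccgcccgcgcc
SREBF2 (chr22:41832905-41833104, plus strand): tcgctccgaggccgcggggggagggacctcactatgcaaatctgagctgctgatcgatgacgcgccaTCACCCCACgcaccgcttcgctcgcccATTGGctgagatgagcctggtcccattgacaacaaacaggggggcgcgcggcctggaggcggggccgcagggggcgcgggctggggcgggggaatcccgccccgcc
MSMO1 has 4 CCAAT boxes in the window and was the gene raised most in DTC. MVK and NSDHL, not shown here, hold more CCAAT boxes in their whole promoter entries than MSMO1 and were not called in DTC. IDI1 has 3 CCAAT boxes, of which 2 overlap on opposite strands, HMGCS1 has 2, and INSIG1, TM7SF2, SCD and SREBF2 have 1 each in the bases shown. Another listed start of HMGCS1, and another of IDI1, have no CCAAT box in their entries. SCD was lower in DTC and SREBF2 was not called there.

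The other 4 promoters hold neither a CCAAT box nor a TCACNCCAC match in the 200 bases shown, so they carry no capitals. INSIG2 was higher in DTC, and SREBF1, ABCA1 and ELOVL6 were lower.
INSIG2 (chr2:118088271-118088470, plus strand): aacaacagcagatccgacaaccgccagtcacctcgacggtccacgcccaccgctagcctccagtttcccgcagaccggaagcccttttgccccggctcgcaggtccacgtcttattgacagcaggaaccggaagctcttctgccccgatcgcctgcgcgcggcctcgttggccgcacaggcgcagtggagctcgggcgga
SREBF1 (chr17:17836987-17837186, minus strand): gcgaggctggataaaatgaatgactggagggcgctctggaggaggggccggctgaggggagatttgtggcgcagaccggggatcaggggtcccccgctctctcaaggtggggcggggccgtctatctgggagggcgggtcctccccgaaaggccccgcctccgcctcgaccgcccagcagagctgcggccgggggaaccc
ABCA1 (chr9:104928156-104928355, minus strand): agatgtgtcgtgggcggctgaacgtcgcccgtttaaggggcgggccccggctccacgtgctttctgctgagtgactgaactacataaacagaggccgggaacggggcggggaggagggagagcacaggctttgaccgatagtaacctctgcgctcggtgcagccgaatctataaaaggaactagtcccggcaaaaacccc
ELOVL6 (chr4:110198616-110198815, minus strand): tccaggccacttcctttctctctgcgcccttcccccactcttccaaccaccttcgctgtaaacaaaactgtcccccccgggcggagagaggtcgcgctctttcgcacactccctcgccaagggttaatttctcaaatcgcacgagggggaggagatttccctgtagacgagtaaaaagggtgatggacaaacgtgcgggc
SREBF1 was below WT in DTC by the largest margin among the 34 genes, ELOVL6 elongates fatty acids, and ABCA1 exports cholesterol. The windows rest on RefSeq starts, and a gene can have further starts elsewhere.

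After 7 days of erlotinib all 7 fatty acid genes were lower, while of the 11 sterol genes 5 were higher and 6 were not called. Of the 34 genes tested in DTC against WT, 12 were higher, 13 were lower and 9 did not pass an adjusted p of 0.05 (edgeR quasi-likelihood test with Benjamini-Hochberg adjustment over all genes). Among all 17115 genes tested, 67.3% were called in this comparison, 34.0% higher and 33.3% lower, and 73.5% of the 34 genes were called. No sterol gene was lower and no fatty acid gene higher, and of the mevalonate genes 4 of 7 were higher and 1 lower. The regulators split into 2 higher (INSIG1, INSIG2) and 2 lower (SREBF1, SCAP). Of the transport genes, ABCA1, ABCG1 and NPC1 were lower and NPC2 was higher. The median log2 fold change was -1.14 over the fatty acid genes, 0.30 over the sterol genes, 0.33 over the mevalonate genes and 0.06 over all genes tested. At least 2-fold higher were 6 genes (22.3% of all genes) and at least 2-fold lower 8 (13.9% of all genes). The DTC and WT libraries did not overlap for 25 of the 34, against 68.9% of all genes.

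The number of higher and lower genes in DTC depended on the scaling. With the library totals alone the split was 19 higher and 8 lower, with upper quartile scaling 18 and 10, and after a filter at a mean of 1 CPM 14 and 10, while the median of all genes moved up by 0.35 and 0.29 log2 units under the first 2. The fatty acid genes were 0 higher and 4 lower with library totals and 0 higher and 6 lower with upper quartile scaling, and the sterol genes were 10 and 9 higher with 0 lower. Without DTC replicate 1 the split was 14 higher and 13 lower, and 7 of 7 fatty acid genes were lower. With any other WT or DTC library left out, 6 of the 7 were called lower, all but FADS2.

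After 28 days more of the genes were called above WT than below it. In DTEC against WT, 19 of 34 genes were higher, 3 were lower (SCAP, ABCA1 and ELOVL6) and 12 did not pass the test. The background was 52.3% of all genes called, 26.0% higher and 26.3% lower. The median over the 34 genes was 0.42 on the log2 scale, against 0.02 over all genes. By role, 8 of 11 sterol genes, 3 of 7 mevalonate genes, 3 of 5 regulators, 4 of 7 fatty acid genes and 1 of 4 transport genes were higher. At least 2-fold higher were 7 genes (HMGCS1, TM7SF2, MSMO1, INSIG1, INSIG2, NPC2 and SCD), and 0 were 2-fold lower, where 13.2% of all genes were called 2-fold higher and 6.7% 2-fold lower. The DTEC and WT libraries did not overlap for 24 of 34 genes, against 62.4% of all genes.

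Between 7 and 28 days the fatty acid genes were called higher, with ACLY the least stable of them. In DTEC against DTC, 18 genes were higher, 4 were lower and 12 did not pass, with 55.4% of all genes called, 28.8% higher and 26.6% lower. Of the fatty acid genes 7 of 7 were higher, with a median of 1.31 on the log2 scale against -0.01 over all genes, and 3 of 4 transport genes and 3 of 5 regulators were higher. The 4 genes that fell were MVD, IDI1, MSMO1 and SC5D. At least 2-fold higher were 7 genes (8.1% of all genes), namely SREBF1, ABCA1, ABCG1, ACACA, FASN, SCD and ELOVL6, and 0 were 2-fold lower (14.3% of all genes). The libraries did not overlap for 22 of the 34, against 56.7% of all genes. The split was 15 higher and 8 lower with library totals and 16 and 7 with upper quartile scaling, and under both 6 of 7 fatty acid genes rose and 0 fell. The rise of ACLY (log2 0.37, adjusted p = 0.019) was lost under 8 of the 14 alternatives, among them the compared groups alone (adjusted p = 0.13) and the fits without DTC replicate 2 (0.15), DTC replicate 3 (0.11), DTEC replicate 2 (0.067) or DTEC replicate 3 (0.098). The fall of MVD (log2 -0.63, adjusted p = 0.035), whose DTEC and DTC libraries overlapped, was lost under 5, among them those without DTC replicate 2 (adjusted p = 0.097), DTC replicate 3 (0.12), DTEC replicate 1 (0.13) or DTEC replicate 2 (0.11). The comparisons with WT share the WT libraries, and the comparisons with DTC share the DTC libraries.

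**Figure D2:**
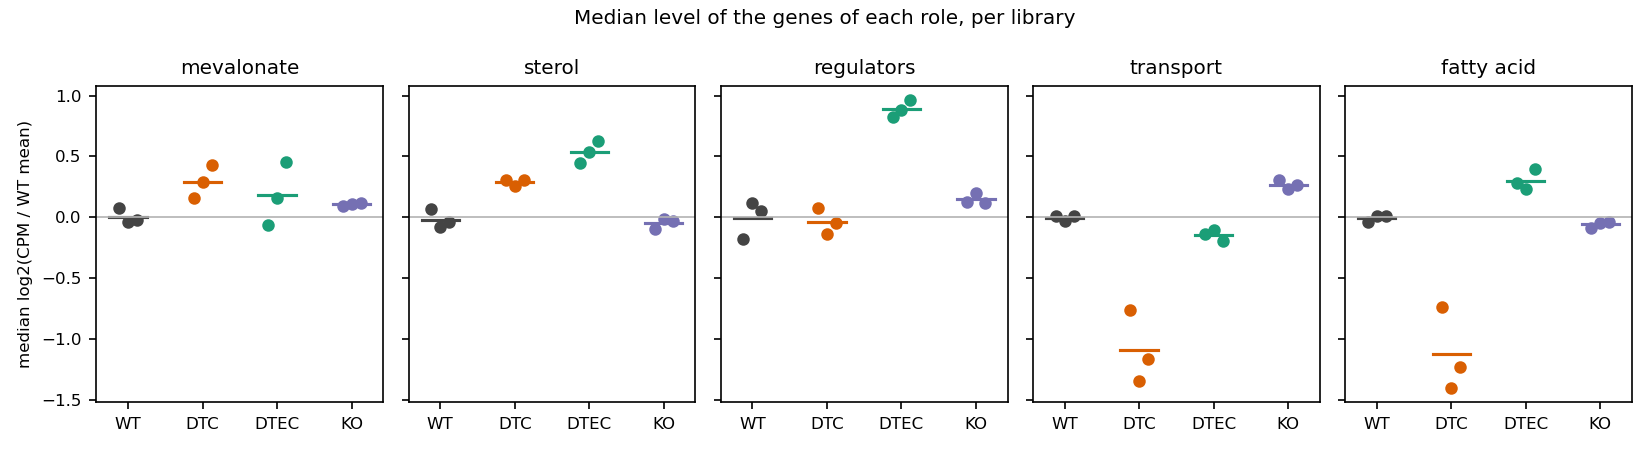
Median over the genes of each role of log2(CPM / mean CPM of WT), in each of 12 libraries (points), with the group mean as a bar. The DTC libraries lie between -1.402 and -0.74 for the fatty acid genes, and the DTEC libraries between 0.23 and 0.39.

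Both INSIG genes rose in DTC and stayed up in DTEC. INSIG1 (ENSG00000186480, chr7:155297776-155310235 on GRCh38, GENCODE 29), an SREBP target that retains SCAP, was at 31.8, 28.9 and 32.0 CPM in WT, 81.9, 93.3 and 82.5 in DTC, 69.6, 86.9 and 90.4 in DTEC and 32.1, 29.04 and 29.03 in KO. Every erlotinib library lay above every untreated one. The rise was 2.78-fold in DTC (log2 1.47, SE 0.113, adjusted p = 4.4e-08) and 2.66-fold in DTEC (log2 1.41, SE 0.113, adjusted p = 2.3e-07), and DTEC and DTC differed by -0.06 (95% interval -0.30 to 0.17). INSIG2, its paralogue, was at 49.0, 36.2 and 40.6 CPM in WT, 109, 100.2 and 95.5 in DTC, 110.5, 111 and 102 in DTEC and 44.8, 43.0 and 39.5 in KO. INSIG2 showed the same separation of treated from untreated libraries, at 2.42-fold in DTC and 2.57-fold in DTEC.

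SREBF1 and SREBF2, which encode the SREBP factors, took different courses. SREBF1 (ENSG00000072310, chr17:17810399-17837002) was at 161, 234 and 209 CPM in WT, 35.8, 46.5 and 50.1 in DTC, 155, 189.5 and 219 in DTEC and 245, 278 and 269 in KO. The DTC libraries stood below all others, at 21.9% of WT (log2 -2.19, SE 0.167, adjusted p = 4.6e-08), and the DTEC libraries overlapped with WT (log2 -0.10, 95% interval -0.44 to 0.24, adjusted p = 0.62). SREBF2 (ENSG00000198911, chr22:41833079-41907308) was at 194, 238 and 225 CPM in WT, 231, 199.5 and 212 in DTC, 388, 405 and 426 in DTEC and 254, 270.2 and 273 in KO. Its DTC and WT libraries overlapped (log2 -0.03, 95% interval -0.25 to 0.18), and the DTEC libraries were the highest of the 4 groups, 1.85-fold above WT (log2 0.89, SE 0.101, adjusted p = 5.8e-06). With library totals SREBF2 was called higher in DTC as well, at a log2 of 0.32 (adjusted p = 0.012), and with upper quartile scaling at 0.25 (adjusted p = 0.030). SCAP, their escort, was at 90.7 ± 9.87 CPM in WT, 43.8 ± 2.78 in DTC and 64.1 ± 8.42 in DTEC, and was lower than WT at both times (log2 -1.05 and -0.50).

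**Figure D3:**
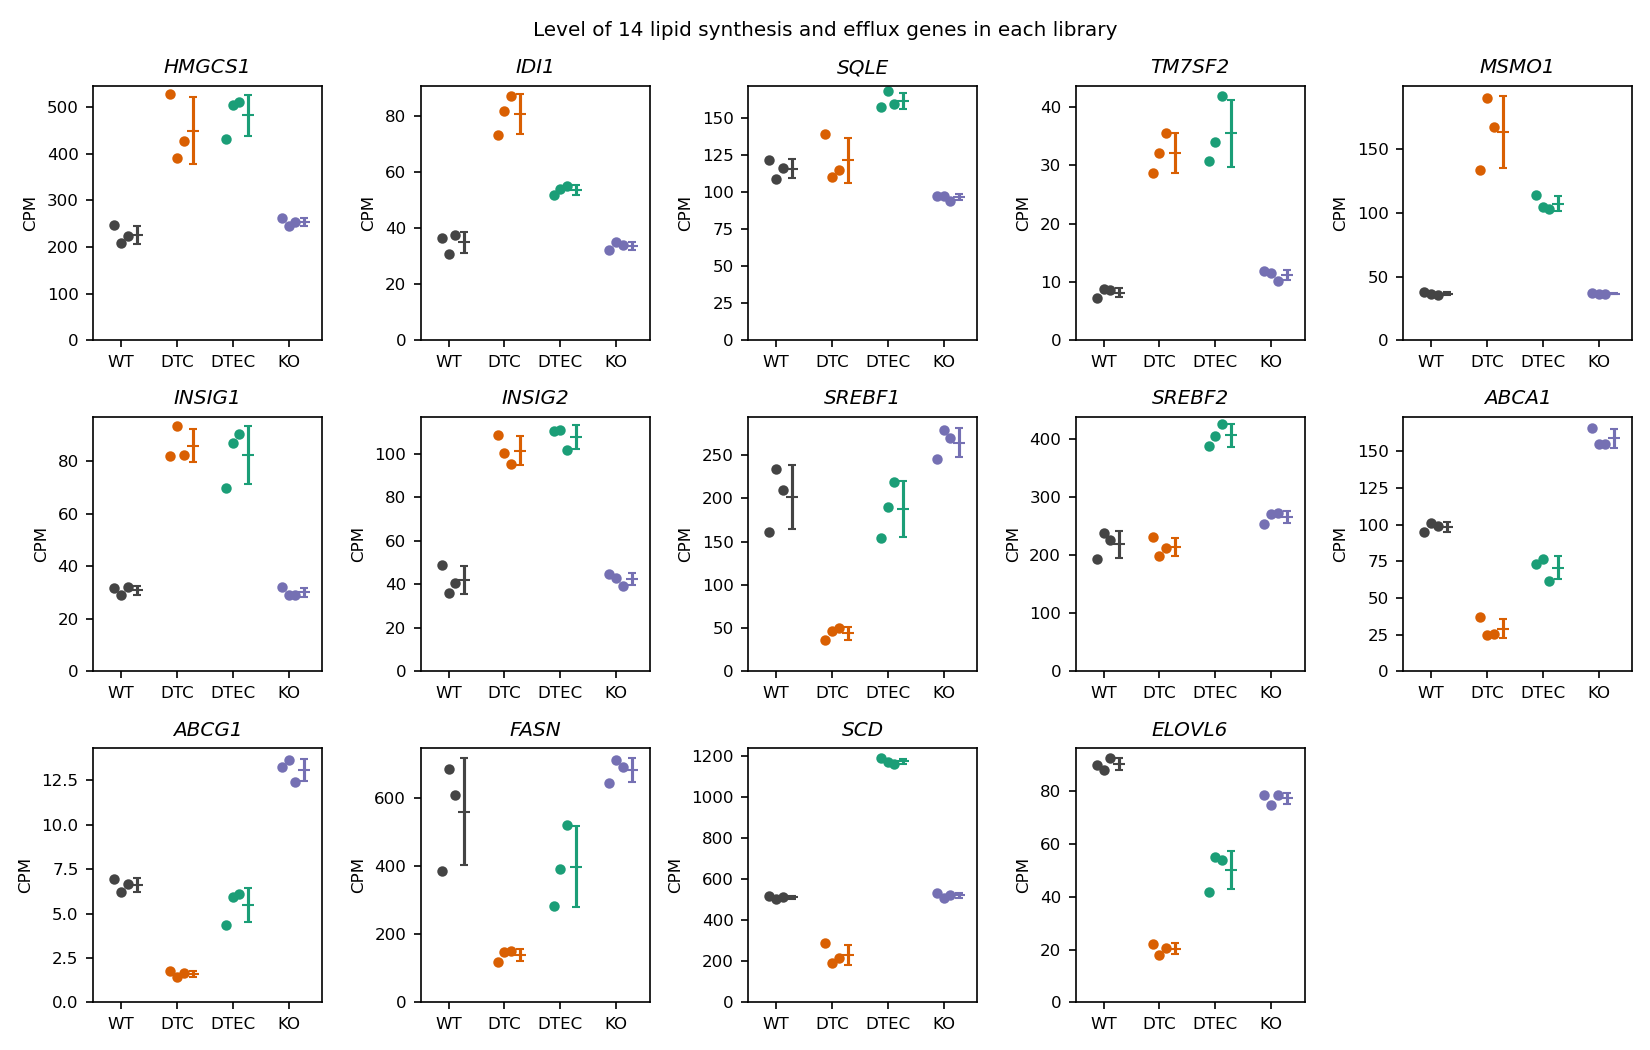
Level in CPM of 14 genes in each library (points, 3 per group), with the mean and SD beside them; every vertical axis starts at 0. INSIG1, INSIG2, TM7SF2 and MSMO1 are high in both erlotinib groups, whereas SREBF1, ABCA1, ABCG1, FASN and ELOVL6 are lowest in DTC.

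In the mevalonate steps, HMGCS1 and IDI1 had the largest rises. HMGCS1 (ENSG00000112972, chr5:43289395-43313512), the cytosolic HMG-CoA synthase, was at 248, 209.8 and 223 CPM in WT, 529, 391 and 428 in DTC, 431, 506 and 511 in DTEC and 262, 245 and 254 in KO. The erlotinib libraries lay above all untreated ones, 1.98-fold in DTC (log2 0.99, SE 0.120, adjusted p = 5.0e-06) and 2.13-fold in DTEC. IDI1, the isopentenyl diphosphate isomerase, was at 36.5, 30.8 and 37.7 CPM in WT, 73.1, 81.7 and 87.2 in DTC, 51.7, 53.9 and 55.0 in DTEC and 32.0, 35.1 and 34.0 in KO. Here the 4 groups formed 3 levels, with DTC highest, DTEC between and both untreated groups lowest: the log2 difference was 1.21 in DTC, 0.61 in DTEC and -0.59 between DTEC and DTC (adjusted p = 0.00022).

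The other 5 mevalonate genes moved less. FDPS, the farnesyl diphosphate synthase, was called higher in both erlotinib groups by 0.33 and 0.26 on the log2 scale, and the second call was lost without filtering (adjusted p = 0.13) and without WT replicate 2 (0.10), WT replicate 3 (0.14) or DTEC replicate 3 (0.20). MVD, the mevalonate diphosphate decarboxylase, was called higher in DTC (65.9 ± 15.4 against 43.4 ± 7.54 CPM in WT), a call lost without WT replicate 1 (adjusted p = 0.11), DTC replicate 2 (0.081) or DTC replicate 3 (0.10). PMVK, phosphomevalonate kinase, was called lower in DTC by 0.50 and lost that call under 5 of the 14 alternatives, among them library totals (adjusted p = 0.41). MVK, mevalonate kinase, and ACAT2, the acetoacetyl-CoA thiolase at the head of the pathway, did not pass in any comparison, with log2 values between -0.18 and 0.44. MVK was called higher in DTEC under 6 of the 14 alternatives and ACAT2 higher in DTC under 3.

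In the sterol steps the changes were uneven along the pathway. MSMO1 (ENSG00000052802, chr4:165327623-165343160), the methylsterol monooxygenase, was at 38.1, 36.1 and 36.0 CPM in WT, 134, 190.0 and 167 in DTC, 114, 105 and 104 in DTEC and 37.5, 36.7 and 36.2 in KO. The 3 levels did not overlap: 4.46-fold above WT in DTC (log2 2.16, SE 0.118, adjusted p = 1.9e-09), 2.93-fold in DTEC, and KO among the WT values. TM7SF2, a sterol reductase that acts just after lanosterol demethylation, was at 7.26, 8.77 and 8.57 CPM in WT, 28.7, 32.1 and 35.6 in DTC, 30.7, 34.0 and 41.9 in DTEC and 11.9, 11.6 and 10.2 in KO. It was 3.92-fold above WT in DTC and 4.33-fold in DTEC (adjusted p = 1.9e-08 and 4.5e-08), with overlapping DTC and DTEC libraries. SQLE, squalene epoxidase, was at 122, 109 and 116 CPM in WT, 139, 110.4 and 115 in DTC, 158, 168 and 159 in DTEC and 97.6, 97.7 and 94.3 in KO. SQLE overlapped between DTC and WT (log2 0.07, 95% interval -0.14 to 0.28) and was above WT in DTEC (log2 0.48, adjusted p = 0.00094), and it too was called higher in DTC with library totals (log2 0.43, adjusted p = 0.0015) and upper quartile scaling (0.36, adjusted p = 0.0034).

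Of the remaining sterol genes, SC5D, the sterol desaturase, followed the course of MSMO1 and IDI1, with 45.7 ± 1.85 CPM in WT, 106 ± 9.60 in DTC and 73.1 ± 5.79 in DTEC. HSD17B7, a sterol ketoreductase, was at 15.4 ± 0.851, 25.4 ± 6.07 and 26.4 ± 3.18 CPM, and was higher at both times by 0.72 and 0.78 on the log2 scale. FDFT1, the squalene synthase, rose in steps from 99.5 ± 9.04 to 135 ± 10.3 and 163 ± 15.4 CPM, where the second step (log2 0.28) was lost under 10 of the 14 alternatives. CYP51A1, the lanosterol demethylase, and DHCR7, the last reductase of one branch, did not pass in DTC and were higher in DTEC, by 0.45 and 0.49 on the log2 scale. LSS, NSDHL and EBP, which cyclise squalene epoxide, remove a methyl group and shift a double bond, did not pass in any comparison. NSDHL was called higher in DTC under 8 of the 14 alternatives, with adjusted p values down to 9.4e-05, and LSS under 4. EBP was called lower in DTEC than in DTC under 5 (adjusted p down to 0.0036). It was also called lower in DTEC than in WT without DTEC replicate 3 (0.0063), and higher in DTC than in WT with library totals (0.031).

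The exporters ABCA1 and ABCG1 fell in DTC and were raised in KO. ABCA1 (ENSG00000165029, chr9:104781002-104928237) was at 94.8, 101 and 98.8 CPM in WT, 36.8, 25.1 and 25.6 in DTC, 73.5, 76.6 and 61.9 in DTEC and 166, 155 and 155 in KO. The 4 groups did not overlap, in the order KO, WT, DTEC, DTC. ABCA1 stood at 29.7% of WT in DTC (log2 -1.75, SE 0.139, adjusted p = 6.3e-08) and 71.9% in DTEC (adjusted p = 0.0084), the second of which was lost with library totals (adjusted p = 0.070). ABCG1, its partner in export to lipoprotein particles, was at 6.96, 6.21 and 6.69 CPM in WT, 1.76, 1.41 and 1.67 in DTC, 4.38, 5.96 and 6.13 in DTEC and 13.2, 13.6 and 12.4 in KO. ABCG1 held the same order of non-overlapping groups, at 24.4% of WT in DTC (log2 -2.04, SE 0.163, adjusted p = 6.9e-08), and its difference of DTEC from WT did not pass (log2 -0.27, 95% interval -0.59 to 0.05).

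NPC1 and NPC2 move cholesterol out of lysosomes together. NPC2, the soluble carrier, was at 196 ± 11.3 CPM in WT, 282 ± 69.5 in DTC and 445 ± 22.0 in DTEC, and rose by 0.53 and 1.19 on the log2 scale, although the DTC libraries overlapped with WT. NPC1, the membrane protein, was called lower in DTC alone (log2 -0.38, adjusted p = 0.027), and 11 of the 14 alternatives lost that call. STARD4, a cytosolic sterol carrier, was listed at 0 in all 12 libraries and was not tested. Whether that 0 means no transcript or comes from the annotation used for counting cannot be told from the table.

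The fatty acid genes fell together in DTC and separated in DTEC. FASN (ENSG00000169710, chr17:82078333-82098332), the fatty acid synthase, was at 386, 687 and 611 CPM in WT, 120.3, 148 and 150.1 in DTC, 284, 393 and 521 in DTEC and 645, 713 and 692 in KO. All DTC libraries lay below all others, at 24.8% of WT (log2 -2.01, SE 0.225, adjusted p = 3.2e-06), whereas DTEC overlapped with WT (log2 -0.49, 95% interval -0.96 to -0.02, adjusted p = 0.073). In 4 of the 14 alternatives FASN was called lower in DTEC too, among them the fit with a replicate block (adjusted p = 0.011) and those without WT replicate 1 (0.014) or DTEC replicate 3 (0.013). SCD (ENSG00000099194, chr10:100347124-100364834), the stearoyl-CoA desaturase that makes oleate, was at 519, 501 and 511 CPM in WT, 287, 193 and 217 in DTC, 1187, 1167 and 1161 in DTEC and 532, 506 and 522 in KO. The DTC libraries were lowest and the DTEC libraries highest: 45.5% of WT in DTC (log2 -1.14, SE 0.123, adjusted p = 1.5e-06), 2.30-fold above WT in DTEC and 5.05-fold above DTC (log2 2.33, SE 0.127, adjusted p = 4.4e-09).

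ELOVL6, the elongase that extends palmitate, did not regain its WT level. It was at 90.2, 88.1 and 92.7 CPM in WT, 22.1, 18.0 and 20.8 in DTC, 41.9, 55.0 and 53.8 in DTEC and 78.5, 75.0 and 78.7 in KO, and no 2 groups overlapped. DTC stood at 22.5% of WT (adjusted p = 1.8e-09) and DTEC at 55.6% (adjusted p = 2.5e-05). ACACA, the acetyl-CoA carboxylase, went from 223 ± 5.61 CPM in WT to 99.7 ± 29.6 in DTC and 334 ± 17.1 in DTEC, a fall of 1.16 and then a rise above WT by 0.58 on the log2 scale. ACLY, the ATP citrate lyase that supplies acetyl-CoA, was at 354 ± 10.0, 229 ± 46.9 and 296 ± 11.8 CPM and was called lower in DTC, except with library totals (adjusted p = 0.059). The desaturases FADS1 and FADS2, which make polyunsaturated fatty acids, were lower in DTC (log2 -0.53 and -0.28) and higher than WT in DTEC (0.40 and 0.30). The DTC call of FADS2 was lost under 12 of the 14 alternatives, and its sign turned with library totals and upper quartile scaling (highest log2 0.07). The DTEC call of FADS2 was lost under 4: no filter (adjusted p = 0.066) and without WT replicate 1 (0.065), WT replicate 3 (0.090) or DTEC replicate 3 (0.089). The DTC call of FADS1 was lost with library totals (adjusted p = 0.17).

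Sorted by their calls, 6 genes rose in DTC and stayed there (HMGCS1, FDPS, TM7SF2, HSD17B7, INSIG1 and INSIG2), and 3 rose and then fell part of the way (IDI1, MSMO1 and SC5D). Lower in DTC and above WT in DTEC were 4 (ACACA, SCD, FADS1 and FADS2), and 5 fell and then rose to a level not called different from WT (PMVK, SREBF1, ABCG1, ACLY and FASN). Another 3 fell and rose part of the way (SCAP, ABCA1 and ELOVL6), and 4 were not called in DTC and stood above both WT and DTC in DTEC (SQLE, CYP51A1, DHCR7 and SREBF2). These groupings describe calls, some of them lost under alternatives as given above, among them those of FADS2 against WT. A missing call does not show that 2 levels were alike.

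In untreated TDP1 KO cells the exporters ABCA1 and ABCG1 were higher than in WT. In KO against WT, 2 of 34 genes were called, ABCG1 (1.98-fold higher, log2 0.98, SE 0.145, adjusted p = 0.0016) and ABCA1 (1.62-fold higher, log2 0.69, SE 0.134, adjusted p = 0.0092), and 32 did not pass. That is 5.88% of the genes, against 4.31% of all genes called in this comparison, 2.76% higher and 1.55% lower. The 3 KO libraries lay above the 3 WT libraries for both exporters, as they did for SREBF1 (log2 0.39, 95% interval 0.05 to 0.73, adjusted p = 0.22), SREBF2 (0.28, 0.06 to 0.49, adjusted p = 0.16) and TM7SF2 (0.45, 0.16 to 0.75, adjusted p = 0.088), which did not pass. SREBF1 was called with a replicate block (adjusted p = 0.033) and without a filter (0.048). TM7SF2 was called under 4 of the 14 alternatives. Of the 34 genes, 14 had non-overlapping KO and WT libraries, 8 higher and 6 lower, against 35.7% of all genes, 15.8% higher and 19.9% lower. SCD (log2 0.03, 95% interval -0.23 to 0.29), MSMO1 (0.00, -0.24 to 0.25) and INSIG1 (-0.04, -0.28 to 0.20) overlapped. The call of ABCA1 was lost without WT replicate 1 (adjusted p = 0.053). Fitted on the KO and WT libraries alone, 17.5% of all genes and 8 of the 34 were called, with LSS, TM7SF2 and SREBF2 also higher and SQLE, NPC2 and ELOVL6 lower.

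Per length, the order of the genes changed between the groups. On the scale of CPM per kilobase of GENCODE 29 exon, SCD was highest in WT at 95.1 ± 1.66, followed by NPC2 at 71.1 ± 4.13, ACLY at 67.8 ± 1.92, FASN at 60.0 ± 16.7 and NSDHL at 57.5 ± 5.48. NPC2, ACLY and NSDHL all lay within the spread of FASN, and NPC2 and ACLY within their spread of each other. In DTC the order was led by NPC2 at 102 ± 25.3 and HMGCS1 at 95.6 ± 15.2, which overlapped in their spread, and SCD was at rank 7 and FASN at rank 19 of 34. In DTEC SCD led again at 218.5 ± 2.51, before NPC2 at 162 ± 8.01 and HMGCS1 at 103 ± 9.46. ABCG1 was the lowest of the 34 in WT at 1.08 ± 0.0624. Exon lengths cover the exons of all annotated transcripts, so a gene with many transcripts has a lower value on this scale.

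**Figure D4:**
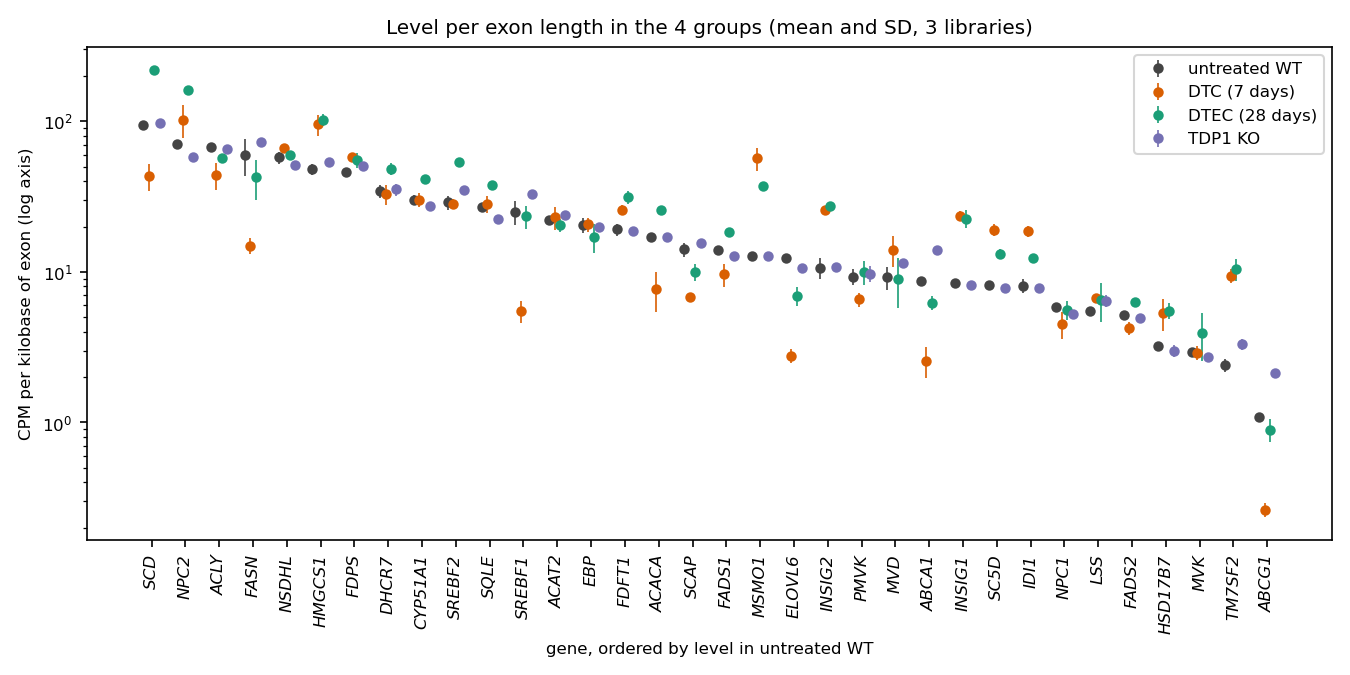
Mean level per kilobase of exon (log axis, CPM per kilobase) of 34 genes in the 4 groups, with SD bars over 3 libraries, ordered by the level in WT. SCD falls to 43.3 in DTC and reaches 218.5 in DTEC, and FASN falls from 60.0 to 14.9 in DTC.

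A longer list of 51 related lipid genes was used to place these 35, and 41 of them were tested. In DTC 9 of the 41 were higher and 19 lower, where 34.0% of all genes were called higher and 33.3% lower. The split became 15 and 11 with library totals and 12 and 11 with upper quartile scaling. LPIN1, a phosphatidate phosphatase and SREBP target, was lower by 1.74 in log2 terms, from 117 ± 2.64 CPM in WT to 34.9 ± 6.37 in DTC. TMEM97, a sterol-responsive membrane protein, was also lower, from 87.0 ± 3.18 to 32.2 ± 2.67 CPM. SCD5, a second stearoyl-CoA desaturase, went the other way from SCD, from 17.1 ± 2.05 to 67.2 ± 5.90 CPM (log2 1.97, adjusted p = 1.8e-08). Besides SCD5, the 9 higher genes were ACACB (log2 1.17), FADS3 (0.91), HACD2 (0.79), LIPA (0.74), OXSM (0.55), GGPS1 (0.48), MBTPS1 (0.38) and CYP27A1. CYP27A1 (log2 4.88) was at only 1.01 ± 0.0939 CPM in DTC. The fall of the 7 fatty acid genes was thus not shared by all genes of these pathways.

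In DTEC 11 of the 41 related genes were higher and 11 lower (18 and 9 with library totals). The first split is near the share over all genes, 26.0% higher and 26.3% lower. ACSS2, which makes acetyl-CoA from acetate, rose from 52.7 ± 1.45 CPM in WT to 134.9 ± 3.04 (log2 1.36, adjusted p = 2.4e-08). LPIN1 was still lower at 53.6 ± 5.92 CPM, and HACD1, a dehydratase of fatty acid elongation, was lower by 0.89 in log2 terms. Between DTC and DTEC 18 rose and 8 fell (14 and 13 with library totals, 15 and 13 with upper quartile scaling). Over all genes 28.8% were called higher and 26.6% lower there. In KO, LPIN1 was lower at 57.5 ± 1.65 CPM (log2 -1.02, adjusted p = 0.00030) and ACSS2 higher at 67.7 ± 2.31 CPM (log2 0.36, adjusted p = 0.022). These were the only 2 of the 41 called there, near the share of 4.31% over all genes.

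Several genes have a limit from counting. Reads were shared out between features for HSD17B7 and NPC1, whose deposited estimates were exactly whole (no decimals, no tolerance) in 0 of 12 libraries, CYP51A1 (1 of 12) and FDPS (4 of 12), so their values rest on that division. Fewer libraries had decimals for SC5D and FADS1 (whole in 7 of 12), EBP and ABCG1 (9 of 12), FDFT1 (10 of 12) and ELOVL6 (11 of 12). In GENCODE 29, 19 of the 35 genes overlap a gene on the opposite strand: ACAT2, HMGCS1, MVK, IDI1, FDPS, FDFT1, LSS, CYP51A1, DHCR7, SREBF1, SREBF2, STARD4, NPC1, NPC2, ABCA1, ACLY, ACACA, FADS1 and FADS2, of which FADS1 and FADS2 overlap each other. The library kit keeps the strand, but the strand setting of the counting is not given in the sources used here, so reads of such pairs cannot be told apart with certainty. On the same strand, TM7SF2 overlaps VPS51, FADS2 overlaps FEN1, and CYP51A1 overlaps ENSG00000285772 and ENSG00000285953.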

How the data were processed

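Polyadenylated RNA of 12 PC9 cultures was sequenced as 101 bp pairs after TruSeq Stranded mRNA library preparation, per the labels' protocols. The authors deposited expected counts per Ensembl gene, estimated by RSEM 1.3.1 with Bowtie2 2.5.2 on GRCh38, per the submitters' processing notes, which also name DESeq2 1.40.2. The annotation release is not given in the sources used here.

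The counts were rounded to whole numbers and fitted over all 12 libraries in R 4.3.3 with edgeR 4.0.16 (limma 3.58.1): filterByExpr (17115 genes kept), TMM scaling, quasi-likelihood tests, Benjamini-Hochberg adjustment over all genes, and a call at an adjusted p under 0.05. The script was tested on simulated data. A count of 3 corresponds to 0.0824 to 0.115 CPM, and such floors cover counting error only. Coordinates, overlaps and exon lengths come from GENCODE 29, and promoters from RefSeq (GRCh38.p14). The table held 0 columns of other samples.

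The members and lists were chosen with earlier results of these data known. Values in every library are given for 9 named genes and the 2 genes per role that changed most against WT. Of the related genes, the 3 called genes with the largest change and a mean of at least 5 CPM are named per comparison with WT. The 9 related genes called higher in DTC are listed as well.

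Same-numbered WT and DTC cultures deviated together weakly (r = 0.251, 0.106 and 0.115), which met the rule for pairing of every r over 0.1. DTC replicate 3 correlated more with WT replicate 2 (r = 0.402), so whether the numbers pair these cultures is unsure. The main fit used no pairing, which entered only in the replicate block. In the other comparisons at least 1 pair had r under 0.1. Alternatives were other scalings (DESeq2 size factors, library totals, upper quartile), the DESeq2 1.42.0 Wald test, no filter, a filter at a mean of 1 CPM, a replicate block, a fit of the compared groups alone, and each library left out in turn.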

Additional observations from a re-analysis of the deposited data

How the results depend on the processing

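The number of called cholesterol and fatty acid genes stayed within 1.5 times the main count in the 3 comparisons among erlotinib-treated and untreated WT cells, and with single libraries left out ran from 22 to 27 (DTC), from 20 to 24 (DTEC) and from 19 to 24 (DTEC against DTC). The fit with a replicate block called 25, 24 and 24 of the 34 genes in those comparisons and 3 in KO. In DTC, where same-numbered cultures met the rule for pairing, it changed no split of the counts (12 higher, 13 lower). The comparison of KO with WT was the least stable. It called 738 genes in all, 1147 without a filter, 2656 with the compared groups alone, and 321 to 426 with single libraries left out. Of the 34 genes it called 2, 4 without a filter, 8 with the compared groups alone, and 1 to 2 with single libraries left out. Of the related genes it called 2, 4 with library totals and with DESeq2's Wald test, 1 without a filter, 14 with the compared groups alone and 1 with any single library left out. The cause was not tested, except that leaving out a library leaves fewer samples.

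Values near 0 changed sign. SREBF2 in DTC was 0.014 with DESeq2 size factors, 0.0038 with DESeq2's test, 0.11 after a filter at 1 CPM, 0.32 with library totals, 0.25 with upper quartile scaling and -0.083 to 0.076 with single libraries left out. SREBF1 in DTEC was 0.066 with library totals and 0.014 with upper quartile scaling. Between DTEC and DTC, with library totals and upper quartile scaling, HMGCS1 was -0.085 and -0.069, TM7SF2 -0.042 and -0.030, and INSIG2 -0.10 and -0.087 (-0.0047 after the 1 CPM filter). In KO with library totals IDI1 was 0.015 and INSIG1 0.030. With single libraries left out the log2 values ran from -0.0013 to 0.20 for SQLE in DTC, from -0.24 to 0.042 for SREBF1 in DTEC, and between DTEC and DTC from -0.030 to 0.22 for HMGCS1, from -0.030 to 0.23 for TM7SF2 and from -0.17 to 0.037 for INSIG1. In KO they ran from -0.12 to 0.025 for IDI1, from -0.069 to 0.0096 for INSIG1 and from -0.056 to 0.16 for INSIG2. All of these were uncalled both as first fitted and with the sign turned, except SREBF2 with library totals and upper quartile scaling. Counting depth limits ABCG1 most, at 48.3 counts in its lowest library.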

Other observations

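Of the 41 related lipid genes tested, 19 were lower in DTC, against 33.3% of all genes. At 28 days 9 of those 19 were not called different from WT (ERLIN1, HSD17B12, LPCAT3, MBTPS2, MLX, MYLIP, RNF139, TECR and TMEM97), 7 were still lower and 3 were higher. The 3 described here were chosen from those 9 after their values were seen. They do not stand for the whole list, of which 9 other genes were called higher in DTC. ERLIN1, a protein of the endoplasmic reticulum that restrains SREBP activation, went from 93.6 ± 4.33 CPM in WT to 36.3 ± 4.33 in DTC (log2 -1.37, edgeR adjusted p = 9.9e-08) and 85.0 ± 10.3 in DTEC. MYLIP, an LXR target and ubiquitin ligase, was at 19.3 ± 0.971 CPM in WT, was lower in DTC (log2 -1.10, adjusted p = 1.5e-07) and was at 21.1 ± 0.691 CPM in DTEC. LPCAT3, a phospholipid-remodelling enzyme and LXR target, went from 67.6 ± 2.00 to 31.2 ± 6.61 (log2 -1.12, adjusted p = 4.1e-06) and 65.3 ± 6.90 CPM. For all 3 the difference between DTEC and WT did not pass (log2 -0.14, 0.13 and -0.05), and in KO none was called.

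The culture numbered 1 held the lowest value of its group for SREBF1 and for FASN in all 4 groups, at 161, 35.8, 155 and 245 CPM for SREBF1 and 386, 120.3, 284 and 645 CPM for FASN in WT, DTC, DTEC and KO. The same held for MVD and MVK, so it was not particular to SREBF1 and FASN. The labels place all 12 libraries in 1 batch and do not say whether a number marks a shared day or plating, and the cause was not tested.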
